A study of Canis lupus familiaris with 10 samples.

Results

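The CD1 family of lipid-presenting molecules was examined in CCH, the cutaneous histiocytoma of dogs, which arises from Langerhans cells and mostly regresses on its own. Members were all gene symbols of the deposited table made of CD1, a letter from A to E and an optional number. This rule found 6 of 23266 symbols, namely CD1A6, CD1A8, CD1B, CD1C, CD1D and CD1E. Expression was measured by QuantSeq 3′ in formalin-fixed, paraffin-embedded (FFPE) tumors of pet dogs, with 1 library per tumor. The labels place 5 tumors in group 1 of a histological staging scheme (early CCH) and 5 in group 3 (late CCH), and describe the latter as lymphocyte enriched. The dogs were of several breeds and aged 0.5 to 5.0 years in early CCH, with 1 age not stated, and 1.5 to 9.0 years in late CCH. The labels name no treatment or genetic change. RNA came from whole cross sections freed of adjacent tissue, so that each library is a mixture of tumor cells, infiltrating leukocytes and skin. Fewer cells of a type and less RNA per cell therefore cannot be told apart in any of the differences below.

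CD1 proteins resemble the heavy chain of MHC class I and, like it, pair with beta-2-microglobulin, but their groove holds lipids instead of peptides. They show self and microbial lipids to T cells. CD1A, CD1B and CD1C form one group of presenting molecules, CD1D presents to natural killer T (NKT) cells, and CD1E stays inside the cell, where it helps to load lipids onto the others. CD1A is a classical surface marker of Langerhans cells, and the dog carries several CD1A copies. CD1D is found more broadly, on myeloid cells, B cells and epithelia.

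The libraries held 2973125 to 4439709 reads assigned to genes. RNA integrity, given in the labels as DV200 (the percentage of longer fragments), was 64.5 to 71.2% in early and 71.2 to 75.8% in late CCH, and no RNA extraction batch listed by the study held tumors of both stages. RNA quality, batch and stage cannot be told apart. The summed level of 9 T-cell marker genes ranged from 76.2 to 2271 normalized reads in early and from 3340 to 5668 in late CCH, with every late library above every early one. Columns could be tied to a stage but to no single dog, so the library numbers 1 to 5 are mere names.

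Reads were found for all 6 CD1 genes, but in very unequal amounts. CD1D had 8303 reads over the 10 libraries, CD1A6 3407 and CD1A8 1055, whereas CD1E had 137, CD1C 56 and CD1B 31. CD1D and CD1A6 had reads in 10 of 10 libraries, CD1A8, CD1C and CD1E in 9 and CD1B in 5. QuantSeq 3′ yields about 1 fragment per transcript, so that normalized read counts of different genes need no correction for length. They still depend on the annotation of 3′ ends, which the study extended, and on how shared reads were split. In early CCH the order of the mean levels was CD1D, CD1A6, CD1A8, CD1E, CD1C and CD1B, and the order was the same in late CCH. The ranges of CD1A8 and CD1E did not overlap in early CCH, while each of the other neighbors in that order overlapped. In late CCH the ranges of CD1D, CD1A6 and CD1A8 were apart from each other, and CD1A8 overlapped with CD1E.

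**Figure D1:**
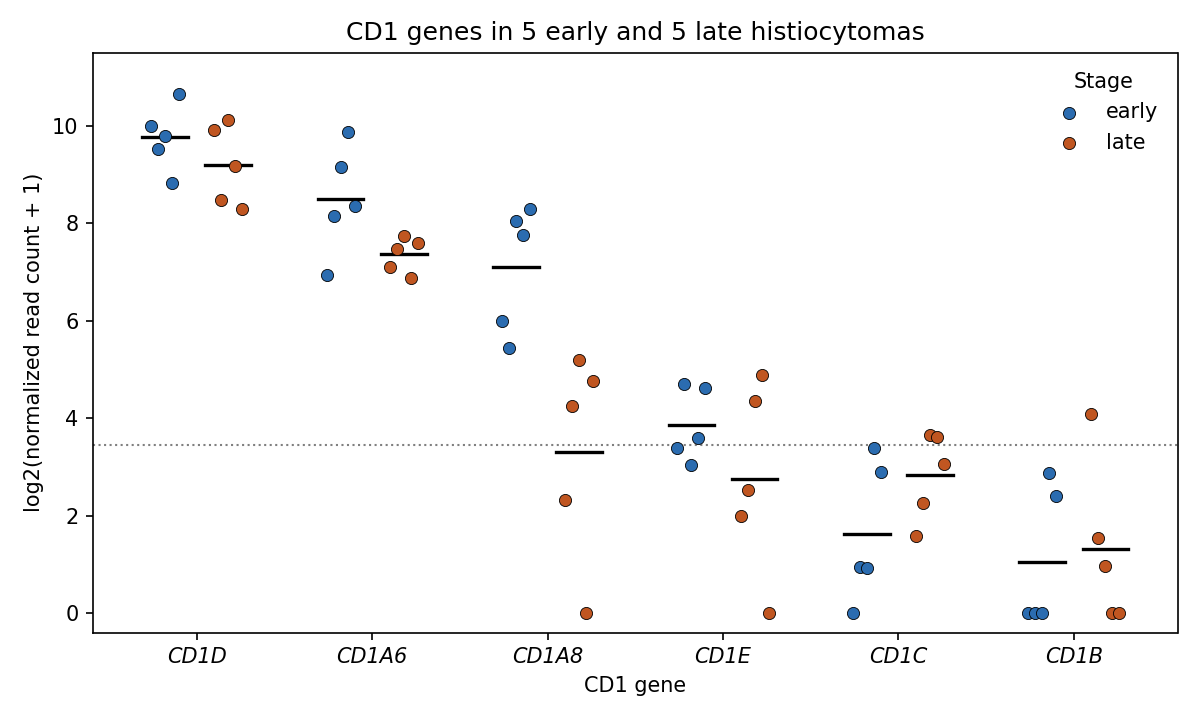
Each point is 1 library, the y axis is log2(normalized read count + 1), and the bars are means of 5 early or 5 late libraries. The dotted line marks a normalized read count of 10. CD1A8 is the only one of the 6 genes whose early and late points do not overlap.

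In the test across all genes, 4 of the 6 CD1 genes passed the filter on low values and none was called. Genes were called with limma where the Benjamini-Yekutieli (BY) adjusted p did not exceed 0.05 and the fold change between the stages reached 1 on the log2 scale (log2FC, late minus early). Among all 12397 genes tested, 2.17% were called, 1.11% as lower and 1.06% as higher in late CCH. At an unadjusted p of at most 0.05 there were 2 of the 4, CD1A8 and CD1A6, against 30.9% of all genes tested. The edgeR test called none of the 4, against 1.43% of all genes, and DESeq2 called 1, CD1A8, against 6.53% of all genes in either direction and 2.66% as lower. With Benjamini-Hochberg (BH) adjustment of the limma values, CD1A8 was also the only CD1 gene called, against 9.04% of all genes. Over all genes tested, the median log2FC was -0.004.

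CD1A8, a copy of the CD1A group, had the lowest log2FC of the family. Its normalized read counts in early CCH were 62.8, 42.8, 262, 216 and 316 in libraries 1 to 5. In late CCH they were 3.98, 18.1, 35.8, 0 and 26.2. Every late library lay below every early library, which was the case for 6.05% of all genes tested, with 5.91% the other way round, and in late library 4 no read of the gene was found. The mean was 180 ± 121 in early and 16.8 ± 15 in late CCH (SD, n = 5 each), so that the mean was 10.7-fold lower in late CCH. When each library was left out in turn, this fold lay between 8.55 and 14.9. The log2FC was -3.80 ± 0.92 (SE) with a 95% confidence interval of -5.80 to -1.80, which is rank 10 from the lowest among the 12397 genes. It was -2.98 without late library 4, the library at 0, and -3.10 with a pseudocount of 5. Its BY-adjusted p was 0.171 with limma and 0.152 with edgeR, above the threshold, and 0.0385 with DESeq2. The DESeq2 value rose to 0.0711 without the filter on low values. Its SD within stages was 1.78 on the log2 scale, higher than in 98.4% of the genes tested. On this scale, late library 4 at 0 lay furthest from its stage mean. Early libraries 1 and 2 also lay well below the other early libraries.

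CD1A6, the more abundant CD1A copy, was also lower on average in late CCH, but its stages overlapped. It had 122, 282, 568, 944 and 330 normalized reads in the early and 137, 177, 213, 118 and 193 in the late libraries. Early library 1 lay among the late libraries, and only late library 4 lay below all early ones. The late libraries were close together, with a highest value 1.81 times the lowest, while the early libraries spread over 7.74 times. The mean was 449 ± 319 in early and 168 ± 39.5 in late CCH (SD, n = 5 each). The log2FC was -1.13 ± 0.43 (SE, 95% CI -2.07 to -0.20), and limma gave a BY-adjusted p of 0.939. When early library 4, the highest, was omitted, early CCH exceeded late CCH by 1.94-fold, against 2.68-fold with all libraries.

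**Figure D2:**
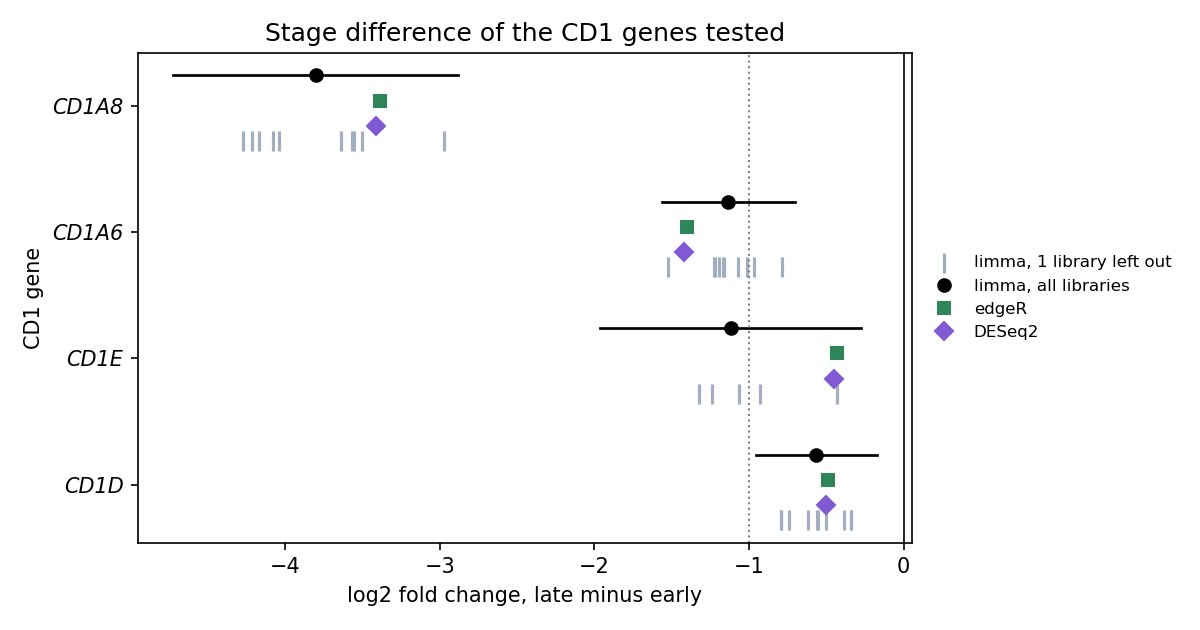
The x axis is the log2 fold change between late and early CCH for the 4 CD1 genes that passed the filter. Circles are limma estimates with their SE, squares edgeR and diamonds DESeq2, small ticks the limma fits without 1 library, and the dotted line the threshold of -1. CD1A8 at -3.80 lies apart from the other 3 genes, and all estimates lie below 0.

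Copies of CD1A may share reads, since the study divided each read with several mapping places evenly among these places, and the table shows the result only after rounding to whole reads. In the RefSeq annotation of the later dog assembly UU_Cfam_GSD_1.0, all 6 genes lie in 1 cluster, and the annotated span of CD1A8 encloses CD1A6. A read shared evenly by both copies adds the same amount to each, so that, apart from rounding, the shared part of CD1A6 cannot exceed the count of CD1A8. In late library 4, CD1A6 had 115 reads and CD1A8 had 0, and in late library 1 they had 138 and 4. The share of CD1A8 in the reads of both copies was 0% there in late library 4, where a count of 0 allows up to 2.61%, and 2.82% in late library 1 (95% CI 1.10 to 7.02, Wilson). Early library 5 had the highest share with 48.9% (95% CI 44.9 to 52.9, Wilson), from 294 reads of CD1A8 and 307 of CD1A6. These intervals cover counting error only. The share was 29.3% ± 14 in early and 7.69% ± 6.1 in late CCH (SD, n = 5 each), and early library 2 with 13.2% lay among the late libraries. CD1A8 had fewer reads than CD1A6 in 10 of 10 libraries, so that its reads could all be shared. The reads of CD1A8 that belong to it alone therefore cannot be counted in any library. Sharing with other copies was not tested.

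**Figure D3:**
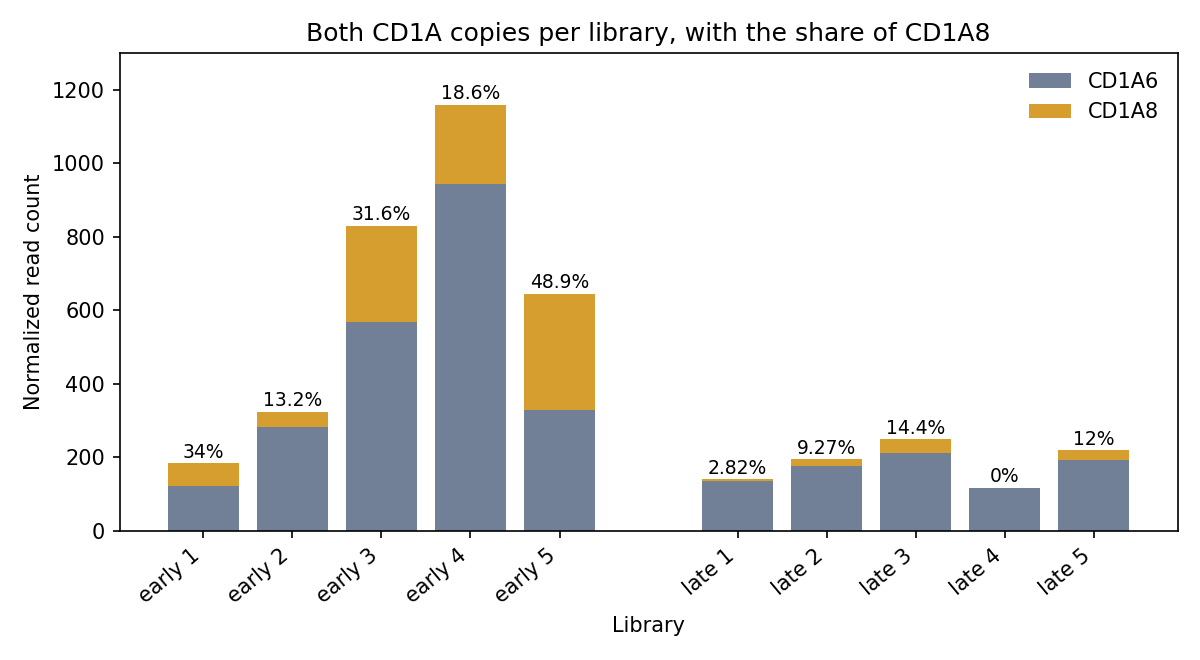
Bars show the normalized read counts of CD1A6 and CD1A8 stacked for each library, and the label gives the share of CD1A8 in percent. The sum lies between 118 and 249 in the late libraries and between 185 and 1159 in the early libraries.

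The sum of both copies does not depend on how reads are split between them, though sharing with other loci was not tested. This sum was 185, 325, 830, 1159 and 645 in the early and 141, 195, 249, 118 and 219 normalized reads in the late libraries. Early libraries 2 to 5 lay above all late libraries, whereas early library 1 lay within their range. With the copies summed as 1 gene, the log2FC was -1.54 ± 0.43 (SE), and the sum was not called.

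CD1D, the NKT cell ligand, was the most abundant CD1 gene, with a mean above that of 97.4% of the genes with reads. It had 1023, 742, 887, 456 and 1617 normalized reads in the early and 968, 358, 1111, 582 and 314 in the late libraries. The stages overlapped widely, and late libraries 2 and 5 lay below all early ones. Its log2FC was -0.56 ± 0.39 (SE), with a 95% confidence interval from -1.41 to 0.28 and a BY-adjusted p of 1 from limma. Early library 4 had the lowest CD1D and the highest CD1A6 of the early libraries, so that the share of CD1D in all CD1 reads ranged from 27.8% to 84.1% in early CCH. In late CCH it ranged from 58.1% to 85.7%.

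CD1E, CD1C and CD1B had few reads. A library without a read still allows up to 3 reads, or 2.36 to 3.22 normalized reads, and CD1B and CD1C lay below 2.36 in at least 1 library of each stage. CD1E, the intracellular lipid chaperone, had 8 to 27 reads per library in early and 0 to 28 in late CCH. Its log2FC was -1.12 ± 0.85 (SE, BY-adjusted p of 1, limma), with late libraries on both sides of the early range. It was -0.43 without late library 5, where CD1E was at 0, -0.59 with a pseudocount of 5, -0.43 with edgeR and -0.45 with DESeq2. It passed the filter with exactly 5 libraries at or above 10. CD1C, which presents mycobacterial and self lipids, had 20 reads in all early and 36 in all late libraries, at most 12 in any of them. CD1B, the member with the largest lipid groove, had 12 and 19 reads, of which 16 came from late library 1. Both missed the filter, and in the fit without a filter their log2FC values were 1.20 ± 0.77 and 0.26 ± 0.84 (SE) with BY-adjusted p-values of 1 from limma. Without late library 1 the value of CD1B was -0.43. No stage difference of these 3 genes was detectable at this depth.

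Whether a CD1 gene differed between the stages relative to another gene was tested on log2 ratios within each library, with a two-sided exact permutation test that exchanged the stages of the libraries. For CD1D as the most abundant member, ratios were taken to B2M, the beta-2-microglobulin chain of every CD1 dimer, to CD74, the invariant chain that accompanies MHC class II and CD1D through the cell, and to ITGAX, the CD11c integrin of dendritic cells. The ratios of CD1D changed by -0.54, -0.80 and -0.44 on the log2 scale from early to late CCH, which did not exceed the spread between libraries (exact p = 0.349, 0.159 and 0.516, BH-adjusted over these 3 tests 0.516, 0.476 and 0.516).

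Ratios of CD1A6 and CD1A8 were added after their values had been seen, 9 in all. Both genes had already been seen to be lower in late CCH, so that small p-values were likely beforehand. In the test across all genes, limma gave BY-adjusted p-values of 0.171 for CD1A8 and 0.939 for CD1A6, and neither was called. The ratio p-values, adjusted over these 9 tests only, describe the values and add no independent evidence. Passing means an adjusted exact p of at most 0.05. The ratio of CD1A8 to ITGAX was -1.99 ± 0.79 in early and -5.66 ± 2.25 in late CCH (SD, n = 5 each), a difference of -3.68 with 5 of 5 late libraries below every early one (exact p = 0.00794, the smallest this test can give, BH-adjusted p = 0.0286). The ratio of CD1A8 to CD74 differed by -4.04, again with 5 of 5 late libraries below the early ones (exact p = 0.00794, adjusted p = 0.0286). The ratio of CD1A8 to B2M differed by -3.78, with 4 of 5 late libraries below (exact p = 0.0159, adjusted p = 0.0286). CD1A8 also differed from CD1A6, by -2.67 with 4 of 5 late libraries below (exact p = 0.0159, adjusted p = 0.0286), and from CD1D by -3.24 (exact p = 0.0317, adjusted p = 0.0408). Without late library 4, where CD1A8 was at 0, the difference to CD1A6 was -1.96 with an adjusted exact p of 0.0571, and that to B2M was -2.90 with the same p. Neither passed without late library 1 (adjusted exact p = 0.0536), and the difference to CD1A6 also did not without early library 3 or 5 (0.0595). The difference to CD1D passed only without early library 1 or late library 2 or 5, and otherwise had adjusted exact p-values of up to 0.112. The differences to ITGAX and CD74 passed without any 1 of the libraries, with adjusted exact p-values of at most 0.0476. CD1A6 differed relative to ITGAX by -1.01 (exact p = 0.0159, adjusted p = 0.0286) and to CD74 by -1.37 (exact p = 0.0238, adjusted p = 0.0357), with 4 and 3 of 5 late libraries below every early one. Without late library 1 or 4 these did not pass (adjusted exact p from 0.0571 to 0.0714). Relative to B2M (-1.11, exact p = 0.0556, adjusted p = 0.0625) and to CD1D (-0.57, exact p = 0.54, adjusted p = 0.54), CD1A6 did not pass.

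**Figure D4:**
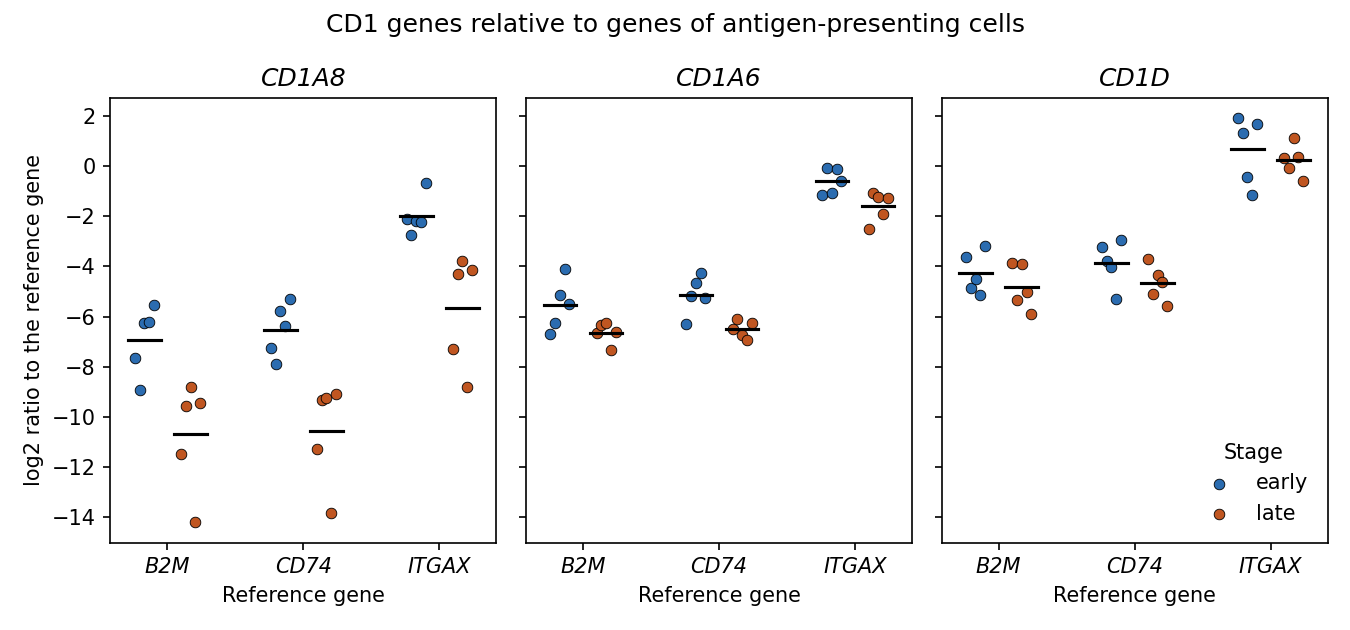
Each point is the log2 ratio of a CD1 gene to B2M, CD74 or ITGAX in 1 library, and bars are means of 5 libraries. For CD1A8 the late minus early differences are -3.78, -4.04 and -3.68. Its late points overlap with the early points for B2M, but not for CD74 or ITGAX. The late points of CD1D overlap with the early points for each of the 3 reference genes.

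Of 18 genes tested for the assembly, lipid loading and lipid supply of CD1 proteins, none was called in either direction, against 2.17% of all genes. At an unadjusted p of at most 0.05, 6 were higher and 3 lower in late CCH, against 15.6% and 15.3% of all genes. Their median log2FC was 0.23, against -0.004 for all genes tested. B2M had 17043 ± 3638 normalized reads in early and 16538 ± 2341 in late CCH (SD, n = 5 each). This gave a log2FC of -0.03 with a 95% confidence interval from -0.44 to 0.38. MTTP, a lipid transfer protein needed for the loading of CD1, was low, at 39.1 ± 31.7 and 24.9 ± 19.5 (SD, n = 5 each). The highest log2FC of the list was that of APOE, which carries lipids into antigen-presenting cells, with 2.10 (BY-adjusted p = 0.0887, limma). The lowest was that of GLA, a lysosomal enzyme that trims glycolipids, with -0.73 (adjusted p = 0.252, limma). Both had stages that did not overlap, with late CCH higher for APOE and lower for GLA, as in 5.91% and 6.05% of all genes.

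Among 13 genes for the traffic of CD1 molecules, none was called, against 2.17% of all genes, and 1 was higher and 5 lower at an unadjusted p of at most 0.05, against 15.6% and 15.3%. The median log2FC was -0.16. AP3M1, a subunit of the AP-3 adaptor that sorts CD1 proteins to lysosomes, had the lowest value with -0.94 (BY-adjusted p = 0.0703, limma). AP2B1, a subunit of the AP-2 adaptor of endocytosis, had the highest with 1.01 (adjusted p = 0.123, limma). ARF6 and RAB11A, small GTPases of the recycling pathway that CD1A uses, came to -0.72 and -0.47 on the log2 scale (limma, adjusted p = 0.076 and 0.208). These genes were named after their values were seen. In both, the late libraries lay below all early libraries, as for 4 of the 13 genes and 6.05% of all genes. None of the 13 had all late libraries above the early ones.

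On the side of the responding T cells, 13 genes were tested, of which 1 was called higher and none lower in late CCH, against 1.06% and 1.11% of all genes. At an unadjusted p of at most 0.05, 11 were higher and none lower, against 15.6% and 15.3%. The median log2FC was 2.46. The call was EGR2, a transcription factor of antigen receptor signaling that NKT cells also need, which rose from 59.6 ± 18.4 to 344 ± 150 normalized reads (SD, n = 5 each). With limma, the log2FC was 2.46 ± 0.29 (SE) and the adjusted p 0.00812. CD3E, a chain of the T-cell receptor complex, had the highest log2FC with 3.53 (adjusted p = 0.308, limma). ZBTB16, the defining factor of NKT cells, had the lowest with 0.44, from 52.3 ± 44.1 to 68.6 ± 43.3 (adjusted p of 1, limma, 95% CI -0.77 to 1.65). Most genes of this list are shared by all T cells and do not mark lipid recognition.

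Of 12 regulators with a known or proposed role in CD1 or Langerhans cell transcription, 1 was called lower and none higher, against 1.11% and 1.06% of all genes. At an unadjusted p of at most 0.05, 2 were higher and 5 lower, against 15.6% and 15.3%. The median log2FC was -0.03. RARA, the retinoic acid receptor alpha, fell from 407 ± 92.7 to 124 ± 34.4 normalized reads (SD, n = 5 each). Its log2FC was -1.71 ± 0.22 (SE), and limma gave an adjusted p of 0.0106. Its partner RXRA had a log2FC of -1.09 (adjusted p = 0.278, limma), and the late libraries lay below all early libraries for both, as for 6.05% of all genes. The calls of EGR2 and RARA were kept when any 1 library was left out (adjusted p from limma of at most 0.0343 and 0.0461). TGFBR1, a receptor of the cytokine that Langerhans cells depend on, had an adjusted p of 0.0419 with limma and a log2FC of -0.94, under the size required for a call. IRF8, a factor of dendritic cells and B cells, had the highest log2FC with 1.27 (adjusted p = 0.217, limma).

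**Figure D5:**
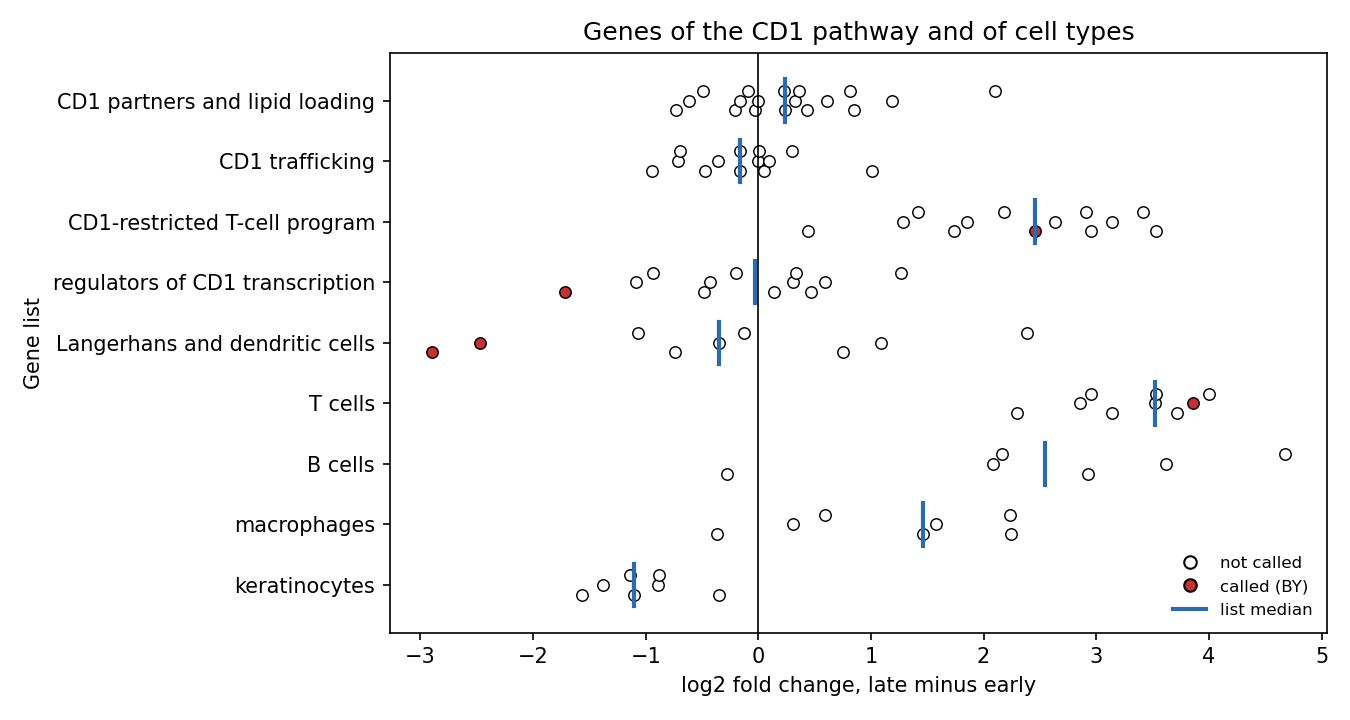
Each circle is the log2 fold change between late and early CCH of 1 gene of a list, filled where the gene was called, and the blue line is the median of the list. The T-cell list has the highest median with 3.52, the CD1 partners and trafficking genes have medians of 0.23 and -0.16, and the fills mark EGR2, RARA, FLT3, FCER1A and CD6.

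Markers of the cell types that could hold CD1 transcripts moved in different directions. Of 9 Langerhans and dendritic cell genes tested, FLT3 and FCER1A were called lower and none higher, against 1.11% and 1.06% of all genes. FLT3, a growth factor receptor of dendritic cells, had a log2FC of -2.89 (limma, adjusted p = 0.0434). FCER1A, the alpha chain of the IgE receptor, had -2.47 (limma, adjusted p = 0.0401). At an unadjusted limma p of at most 0.05, 3 of the 9 were higher and 3 lower, against 15.6% and 15.3%. The list median of log2FC was -0.35. The call of FLT3 was lost without early library 1, 3 or 5 or late library 1, 2, 4 or 5 (adjusted p from limma of up to 0.135) and with edgeR (0.0559), and that of FCER1A was kept only without early library 1 (up to 0.111). CCR7, the homing receptor of mature dendritic cells and T cells, had the highest log2FC with 2.38 (BY-adjusted p = 0.252, limma). FCER1A had 46.6, 72.6, 74.2, 150 and 230 normalized reads in the early and 21.9, 14.3, 15.5, 25.6 and 10.5 in the late libraries, with no overlap. The summed level of the 9 genes was 1250 to 2963 in early and 1338 to 2105 in late CCH. CD207, the langerin gene, was not analysed here. Of 9 T-cell genes, CD6, a surface receptor of T cells, was called higher and none lower, against 1.06% and 1.11% of all genes. All 9 were higher at an unadjusted limma p of at most 0.05, against 15.6% of all genes. Log2FC values ran from 2.29 for CD8A to 4.00 for CD28, both costimulatory or coreceptor chains. CD6 had 3.85 (adjusted p = 0.0226, limma). The call of CD6 was lost without early library 5 or late library 1, 2, 4 or 5 (limma, adjusted p of up to 0.0924). Of 6 B-cell and 7 macrophage genes tested, none was called in either direction, against 2.17% of all genes. At an unadjusted limma p of at most 0.05, 5 B-cell and 4 macrophage genes were higher and none lower, against 15.6% and 15.3%. The B-cell genes had log2FC values from -0.28 for CD22 to 4.67 for CD79B, a chain of the B-cell receptor (median 2.54). Those of the macrophage genes ranged from -0.36 for CSF1R to 2.25 for MSR1, a scavenger receptor (median 1.46). The summed level of the B-cell genes was 480 to 732 in early and 599 to 3224 in late CCH, and that of the macrophage genes 2349 to 10504 and 5681 to 11214. Of the 7 keratinocyte genes, none was called, against 2.17% of all genes. None had an unadjusted limma p of at most 0.05, against 30.9% of all genes. The keratinocyte genes had log2FC values from -1.56 for DSG1 to -0.35 for PKP1, both desmosome components. They summed to 844 to 16454 in early and 644 to 8213 in late CCH. No marker of these lists was at 0 in all libraries. The part of cell composition in the lower CD1A8 and CD1A6 levels was not tested.

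Genes within and around the CD1 cluster were described by position. Among 44 neighbors within 500 kb in the RefSeq table of UU_Cfam_GSD_1.0, 13 had reads and 5 passed the filter. None of the 5 was called, against 2.17% of all genes. LOC610726, annotated there as a pseudogene inside the span of CD1A8, had 0, 46.5, 84.1, 47.3 and 32.2 normalized reads in the early and 32.8, 54.2, 12.6, 55.2 and 1.05 in the late libraries. Its stages overlapped, with a log2FC of -0.23 ± 1.20 (SE). LOC608848, an unnamed protein-coding locus between CD1A6 and CD1D, was in the range of CD1D, with 405 to 1165 normalized reads in early and 279 to 1082 in late CCH. Its log2FC was -0.22 ± 0.36 (SE, BY-adjusted p of 1, limma). LOC610726 and LOC608848 lie within the CD1 cluster, and whether they share reads with the CD1 genes was not tested. LOC488622, a protein-coding locus outside the cluster, had the highest log2FC of the 5 neighbors with 1.13 (adjusted p = 0.0719, limma). All its late libraries lay above the early ones, as in 5.91% of all genes.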

How the data were processed

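The authors trimmed reads with Cutadapt, aligned them with STAR to CanFam3.1 and counted them per gene with featureCounts, with a second round on genes extended at the 3′ end and multi-mapped reads split evenly. Tool versions are not given in the sources used here. The deposited table holds a normalized signal per library, the read count divided by 1 size factor. Of 166096 values above 0, 100% were whole multiples of the value of 1 read (tolerance 0.001), so that reads were recovered. The other 11 columns of the table match no sample and were not used. The main test was limma 3.58.1 (R 4.3.3) (trend option, no covariates) on log2(value + 1). On this scale, the log2FC of low genes depends on the pseudocount and on single libraries at 0. For CD1A8 and CD1E, limma gave -3.80 and -1.12, edgeR -3.39 and -0.43, and DESeq2 -3.42 and -0.45. Genes entered where 5 or more libraries reached 10. The study used DESeq2 on counts, and edgeR 4.0.16 and DESeq2 1.42.0 were run on the recovered reads as alternatives. The limma, edgeR and DESeq2 fits, but not the permutation test, were run on simulated data first. P-values set the difference between the stages against the spread between these 10 tumors, and they do not separate stage from RNA quality or batch. Other alternatives were the pseudocount, filter, scaling, adjustment and the omission of each library. The CD1 genes and all lists were chosen with earlier results of these data known. All CD1 genes are named, and from each list the genes called, those with the highest and lowest log2FC, B2M and MTTP. ITGAX and CD74 were planned reference genes of the CD1D ratios. ARF6, RAB11A, RXRA and TGFBR1 were named after their values were seen. No sequences were used here. RefSeq symbols of UU_Cfam_GSD_1.0 matched 19767 of 23266 table symbols, and this table was used for gene order only.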

Additional observations from a re-analysis of the deposited data

Results flagged for a closer look

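In 62 groups of 5 libraries, covering the CD1 genes, the sum and the share of the CD1A copies and the named list genes in each stage, Dixon's ratio set the gap between an extreme library and the next one against the whole range. The ratio was above 0.71, the 95% limit, in 5 groups, and about 3.1 would be by chance. CD1B in late CCH had a relative gap of 0.88, with 15.9 normalized reads in late library 1 and 1.9 in the next. The other 4 groups were ZBTB16 in early CCH (0.72, early library 3) and CCR7, CD79B and CD22 in late CCH (0.781, 0.913 and 0.716, each with late library 3 as the highest).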

How the results depend on the processing

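No paired analysis was possible because no replicate number links early and late columns, which come from different dogs. CD1A6, CD1A8, CD1D and CD1E kept a negative log2FC under all alternatives in which they were tested. The number of all genes called was 269, and it was 1121 with BH adjustment, 177 with edgeR, 810 with DESeq2 and 49 to 260 without 1 library. Scaling by column totals called 169 higher and 95 lower, against 131 and 138. With BH adjustment and with DESeq2, 1 CD1 gene was called instead of 0, namely CD1A8 (-3.80 and -3.42). Pathway genes called were 15 and 9 instead of 2. The pathway lists had 18, 13, 13 and 12 genes tested. Of all genes, 9.04% and 6.53% were called under these settings, against 2.17% in the main test. Without 1 library, 2 to 4 pathway genes were called. CD1B turned to -0.43 without late library 1. The ranges of log ratios without 1 library were -3.05 to -1.96 for CD1A8 to CD1A6 (not passing without early library 3 or 5 or late library 1 or 4), -3.83 to -2.42 for CD1A8 to CD1D (passing only without early library 1 or late library 2 or 5) and -4.28 to -2.90 for CD1A8 to B2M. For CD1A6 they were -1.02 to 0.01 to CD1D, reversed without early library 4 (0.0077), -1.40 to -0.75 to B2M, which passed without early library 1, -1.15 to -0.79 to ITGAX and -1.67 to -1.16 to CD74. The causes were not tested. A planned ratio to CD207 was not run. At this depth, changes of CD1B, CD1C and CD1E cannot be measured well.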

Other observations

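The genes most like a CD1 gene were ranked by Pearson's r of log2(value + 1) over the 10 libraries among the 12397 genes tested, leaving out LOC symbols, as a description without a test. For CD1D they were GTPBP10, LYSMD3, AK6, NINL, ZNF583 and CRIPT, with r from 0.95 to 0.90. After subtraction of the stage means, LYSMD3 came first with 0.97. CD1A8 and CD1A6 were not among the genes like CD1D, with r of 0.28 and -0.03. For CD1A6, added after the values were seen, the most similar genes were LPAR5, SIGLEC11 and TMEM173, with r from 0.95 to 0.91. For CD1A8 they were AKIRIN2, PHTF2 and GFRA4, with r from 0.98 to 0.97. The r between CD1A6 and CD1A8 was 0.76 and, after subtraction of the stage means, 0.57. All of these values share the 10 libraries and their scaling.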
